A study of Mus musculus with 12 samples.

Results

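Aminoacyl-tRNA synthetases attach each amino acid to its own tRNA, and they are described here across 12 libraries of mouse blood progenitors. The members are the rows of the deposited expression table whose gene symbol has the form of a synthetase (the one-letter code of an amino acid other than glutamate and proline, then "ars", with or without 2, l2, a or b at its end) or is Eprs, the fused glutamyl and prolyl enzyme. They came to 36 of 15366 genes, 21 of them cytosolic and 15 mitochondrial. Tarsl2 ends in 2 but encodes a cytosolic enzyme and was counted there. Gars and Kars each encode the cytosolic and the mitochondrial form from 1 gene and were counted as cytosolic. The mitochondrial synthetase genes Ears2 and Pars2 are not matched by this form of symbol and were tested without being counted.

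The study measured RNA of sorted bone marrow LSK cells (lineage-negative, Sca-1-positive, Kit-positive), a fraction rich in stem and early progenitor cells of the blood, in C57BL/6 mice that had received no treatment. The KDM6B OE group carried human KDM6B under Vav sequences, which direct expression to blood cells, and its label names no Cre. The Tet2 KO group carried Vav Cre and a Tet2 gene with both copies floxed. The double lesion group carried the KDM6B transgene, Vav Cre and both floxed Tet2 copies, and the control group carried Vav Cre alone. KDM6B OE therefore differs from its control in the transgene and in Cre, which cannot be told apart. KDM6B is a demethylase of histone H3 at lysine 27, and TET2 oxidises methylated cytosine in DNA. Each group had 3 libraries, and since no label says that they came from separate animals, p-values measure the spread between these libraries, which may be technical in part.

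Each amino acid has a synthetase for protein synthesis in the cytosol and, in most cases, a separate nuclear gene whose enzyme is imported into mitochondria to charge the tRNAs encoded there. Several cytosolic enzymes are bound together with the scaffold proteins AIMP1, AIMP2 and EEF1E1 in the multisynthetase complex. When uncharged tRNA accumulates, GCN2 phosphorylates the initiation factor eIF2 and the transcription factor ATF4 is made, which raises many cytosolic synthetase genes together with genes of amino acid synthesis and uptake. Blood stem cells are known for a low rate of protein synthesis.

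The sequences that bear on this response are the matches to the ATF4 element, searched as TGATGNAA on both strands of RefSeq promoter windows (250 bases before and 50 after the annotated start, build GRCm38.p6). Windows of 27 of the 36 genes were counted, and the other members were not assessed for motifs. Among those counted, the element stood in the windows of 5 of 14 cytosolic genes and of 0 of 13 mitochondrial genes. It stood in 3.97% of all 32851 windows. That share is per window and the counts of members are per gene, so they are not directly comparable. Each line gives the strand of the gene from 5′ to 3′, with the match in capitals, and 1 match is printed per gene.
Tars, chr15:11399655-11399684, minus strand: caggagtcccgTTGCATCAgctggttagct
Iars, chr13:49682126-49682155, plus strand: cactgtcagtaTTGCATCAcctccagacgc
Gars, chr6:55037960-55037989, plus strand: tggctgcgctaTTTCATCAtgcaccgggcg
Yars, chr4:129189895-129189924, plus strand: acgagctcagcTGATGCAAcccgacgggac
Aars, chr8:111033840-111033869, plus strand: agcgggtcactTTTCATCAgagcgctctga
A further motif was CACGTG, the E-box bound by MYC and related factors. Among the members counted it was found in 4 cytosolic genes and 0 mitochondrial genes. Its share of all windows, again per window, was 7.15%. The 4 genes were Aars, Iars, Tars and Farsb, the phenylalanyl-tRNA synthetase gene with which the results below are mainly concerned.
Farsb, chr1:78488920-78488947, minus strand: tagacaggcatCACGTGagacagcccaa
A match describes the letters of a window and shows no binding.

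Values are CPM, read counts that the authors scaled to a common library size. The libraries held 21935022 to 26263370 reads on listed genes. Tet2 was at 31.6, 24.9 and 24.1 CPM in Tet2 KO libraries and, with both lesions, at 37.2, 35.1 and 26.5 CPM in double lesion libraries, against 82.9, 66.2 and 97.1 CPM in Vav Cre libraries. The row Kdm6b is the mouse gene and the transgene is human, and whether reads of the transgene were counted there was not tested. Kdm6b was at 12.5, 7.79 and 10.4 CPM in KDM6B OE and at 9.92, 12.3 and 9.30 CPM in double lesion libraries, against 6.37, 6.54 and 7.91 CPM in Vav Cre, and neither difference passed (limma adjusted p = 0.217 in KDM6B OE and 0.107 in the double lesion). All 12 LSK marker genes were above 0 in every library, with Kit between 356 and 907 CPM. Of markers of other cells, Pax5 was at 0 in 9 libraries and Cd3e at most at 1.43 CPM, but Cd79b was at 56.6 to 110 CPM, Nkg7 at 204 to 343 CPM, Lyz2 at 345 to 495 CPM and Mpo at 1720 to 6199 CPM. In the double lesion against Vav Cre 4 of 12 LSK genes were called higher. Also called higher were 1 of 5 B cell genes, 3 of 9 neutrophil granule genes and 1 of 4 erythroid genes. Of 6 mast cell, basophil and eosinophil genes 2 were called higher and 1 lower. For T and NK cells 0 of 4 genes were called, and for monocytes 0 of 8. Over all genes 7.34% were called higher and 7.58% lower. The mast cell, basophil and eosinophil list summed to 671 to 4167 CPM in the double lesion, against 110 to 822 CPM in Vav Cre. Immediate early genes, which are induced rapidly by many stimuli, summed to 7221 to 10300 CPM in KDM6B OE and 7308 to 11100 CPM in the double lesion, against 1290 to 2437 CPM in Vav Cre. Transcripts of 4 Y-linked genes were above 10 CPM in double lesion 1 and 3, in Tet2 KO 1, in no KDM6B OE library and in Vav Cre 1.

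All 36 synthetase genes were expressed in every library and passed the filter for testing (a CPM above 1 in at least 3 libraries), which kept 13046 genes. Per kilobase of the principal transcript and averaged over the 12 libraries, Lars2, the mitochondrial leucyl enzyme, had the highest level at 371 CPM per kb (range 308 to 517). Dars, the aspartyl enzyme of the multisynthetase complex, followed at 162 CPM per kb (range 144 to 198), without overlap with Lars2. Kars, Farsb and Vars came next at 102, 99.3 and 95.6 CPM per kb, and their ranges over the libraries overlapped. Mars2, the mitochondrial methionyl enzyme, was lowest at 2.39 CPM per kb. The median of the cytosolic genes was 59.4 CPM per kb, and that of the mitochondrial genes 22.2 CPM per kb. Gene totals do not show where along Lars2 its reads fell. No other transcript of the GENCODE M21 set matched its principal transcript over 100 bases at 95% identity. The exon bases of Lars2 outside that transcript were not searched, nor were sequences outside the transcript set, so stray reads are not excluded.

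For 14 amino acids both genes were measured. Per kilobase of the principal transcript, the cytosolic gene was the higher one in all 12 libraries for 11 of them. For the other 3 the mitochondrial gene was higher in all 12 libraries. Mars exceeded Mars2 by a mean factor of 20.8 (range 12.5 to 27.2), and Wars exceeded Wars2 by 17.0 (12.7 to 19.5). At the other end stood leucine, where the ratio of Lars to Lars2 was 0.0849 (0.0740 to 0.0928), threonine with 0.617 (0.495 to 0.788) and cysteine with 0.782 (0.618 to 0.966). At this length the order of the genes of each amino acid was thus the same in every library. Reads were counted per gene, and over all exons the lengths differ. Cars2 then has 7237 bases (1902 in the principal transcript) and Cars 6583 (3222). Tars2 has 6932 (2400) and Tars 5901 (4005), and Lars2 has 11089 (3894). Levels over all exons were not computed. In CPM, however, Cars was above Cars2 in all 12 libraries, and over all exons Cars is the shorter gene. Over all exons the cysteine genes thus have the opposite order, with Cars the higher one. The ratios depend on the length used, and the order of the threonine genes may as well.

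**Figure D1:**
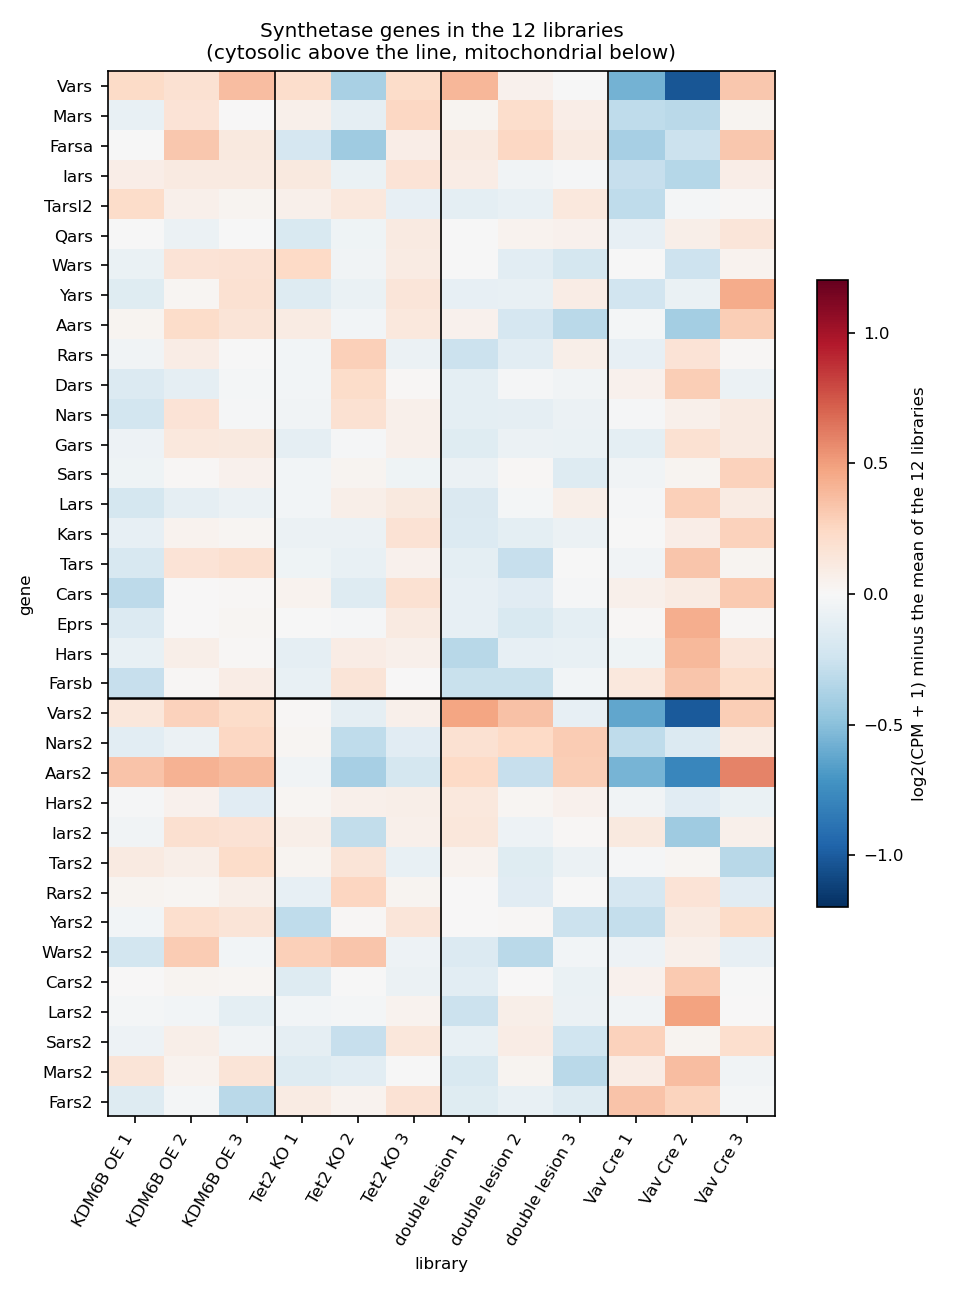
Each row is a synthetase gene (1 member is not drawn) and each column a library, and the colour is log2(CPM + 1) minus the gene's mean over the 12 libraries. Vav Cre 3 differs in colour from Vav Cre 1 and 2 for Vars, Vars2 and Aars2, which were at 478, 54.3 and 29.4 CPM in that library.

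The control libraries did not form a tight group. Among the 36 genes, Vav Cre 2 was the highest of the 12 libraries in 10 (20.6% of all genes) and the lowest in 9 (22.4% of all genes). Vav Cre 3 was the highest in 9 (10.6% of all genes) and the lowest in 1 (13.2% of all genes). The median standard deviation of the members within a group was 0.10 in KDM6B OE, 0.13 in Tet2 KO, 0.10 in the double lesion and 0.19 in Vav Cre on the log2 scale, against 0.15, 0.21, 0.15 and 0.28 over all genes tested in the same order. Every comparison was also made without each library in turn, and the results that depend on Vav Cre 2 or 3 are given below.

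The double lesion held the only synthetase that passed the test, Farsb. A gene was called at an adjusted p under 0.05 (limma, Benjamini-Hochberg over all 13046 genes). In the double lesion against Vav Cre 1 of 36 synthetases was called, lower, against 14.9% of all genes tested (7.58% lower and 7.34% higher). The log2 difference was below 0 for 24 of 36 members, against 45.6% of all genes. Of the cytosolic genes 16 of 21 were below 0, with a median of -0.14, and of the mitochondrial genes 8 of 15, with a median of -0.09. The median over all genes was 0.05. In bulk RNA, fewer cells of a type and less RNA per cell cannot be told apart. At an unadjusted p under 0.05 stood 10 members, against 32.3% of all genes. The libraries of the double lesion and Vav Cre did not overlap for 8 lower members (all genes, 16.4%) and 2 higher members (all genes, 16.4%). edgeR called 1 synthetase, Farsb, against 12.6% of all genes, and DESeq2 called 3, Farsb, Fars2 and Hars, against 20.5% of all genes. With a length and GC trend removed, which was added after seeing the data, 7 members were called lower (Eprs, Fars2 and Sars2 among them), against 14.5% of all genes. With columns rescaled to equal totals the cytosolic median was -0.06 and the mitochondrial one -0.01, while the median over all genes was 0.12.

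**Figure D2:**
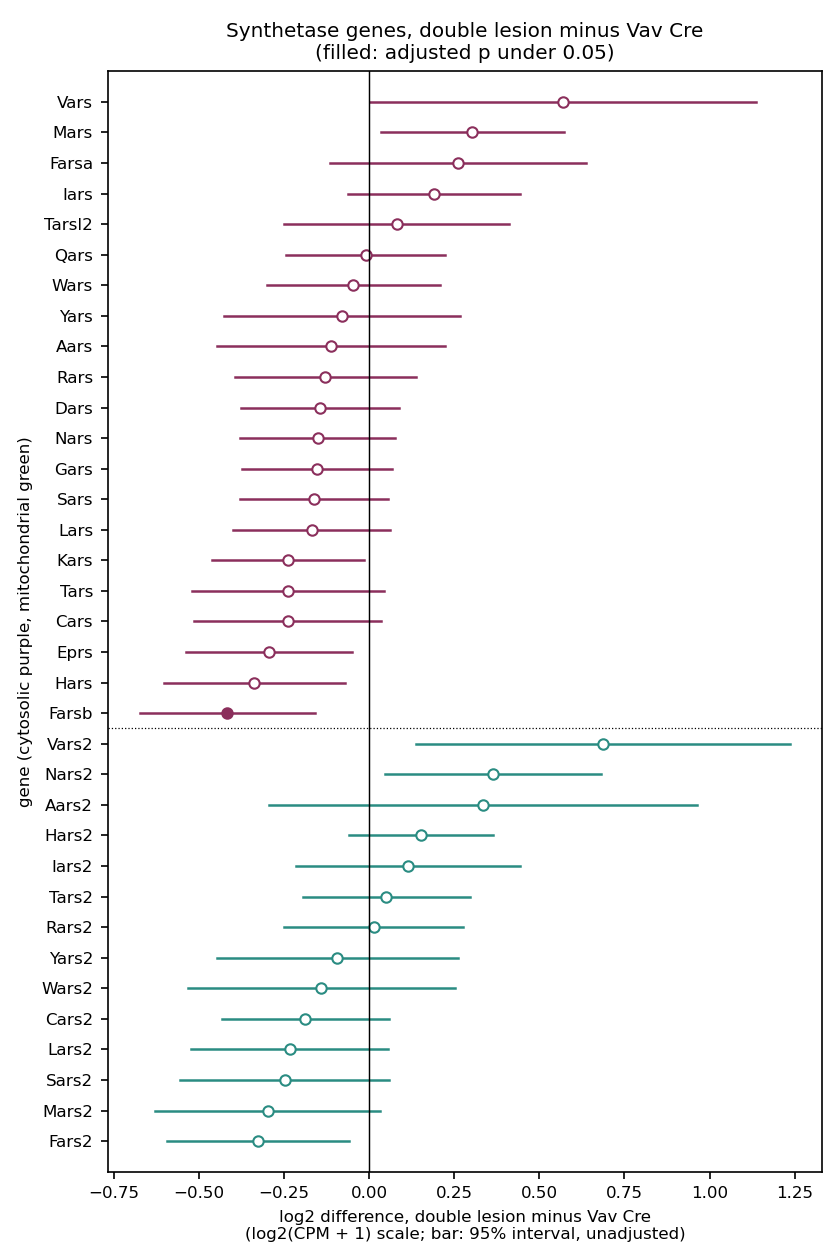
Points are log2 differences between the double lesion and Vav Cre on the log2(CPM + 1) scale and bars are unadjusted 95% intervals, with cytosolic genes above the dotted line and mitochondrial genes below it (1 member is not drawn). Farsb, at -0.42, is the filled point that passed the test, and the intervals of Vars, Vars2 and Aars2 are the widest.

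Farsb (ENSMUSG00000026245; chromosome 1, 78417975 to 78488897, minus strand, GRCm38) encodes the beta subunit of cytosolic phenylalanyl-tRNA synthetase. It was at 166, 166 and 196 CPM in double lesion libraries, against 219, 252 and 234 CPM in Vav Cre libraries. All 3 double lesion libraries lay below all 3 Vav Cre libraries. Means were 176 ± 17.3 CPM in the double lesion and 235 ± 16.7 CPM in Vav Cre (SD, n = 3 each). Farsb fell by 0.42 on the log2 scale in the double lesion (SE 0.12, 95% interval -0.67 to -0.16, limma adjusted p = 0.0354). The single lesions were at 165, 203 and 214 CPM in KDM6B OE and at 188, 223 and 201 CPM in Tet2 KO. The 3 KDM6B OE libraries also lay below Vav Cre, and those of Tet2 KO overlapped it.

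The differences of Farsb in the single lesions were -0.28 for KDM6B OE (SE 0.12, adjusted p = 0.200) and -0.20 for Tet2 KO (SE 0.12, adjusted p = 0.472), and neither passed. Those 2 comparisons and that of the double lesion share the Vav Cre libraries. The call in the double lesion was lost without Vav Cre 2 (limma adjusted p = 0.110), double lesion 1 (0.137), double lesion 2 (0.111) or KDM6B OE 2 (0.0515), with columns rescaled to equal totals (0.0511), with only the compared libraries (0.0798), with a length and GC trend removed (0.0823) and with a term for sex (0.0619). Farsb shares 248 exon bases (9.5% of its own) with Sgpp2 on the opposite strand, and without strand in the counting reads of the 2 genes cannot be told apart there.

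Farsa, the catalytic alpha subunit with which FARSB forms one enzyme, was not called. Farsa was at 135, 149 and 135 CPM in double lesion libraries, against 94.7, 105 and 157 CPM in Vav Cre libraries, where Vav Cre 3 stood above the others. Its difference was 0.26 (SE 0.18, limma adjusted p = 0.326). Per kilobase, the ratio of Farsb to Farsa was 1.18, 1.16 and 1.41 in KDM6B OE, 1.55, 2.15 and 1.36 in Tet2 KO, 1.10, 0.999 and 1.30 in the double lesion, and 2.07, 2.15 and 1.34 in Vav Cre. Every double lesion library had a lower ratio than every Vav Cre library, with double lesion 3 and Vav Cre 3 next to each other. This ratio was chosen after its values were seen and is given with no test. Fars2, the mitochondrial phenylalanyl enzyme from a separate gene, was at 56.1, 58.6 and 55.8 CPM in the double lesion, against 79.2, 75.3 and 61.2 CPM in Vav Cre. The groups did not overlap, and the difference of -0.33 (SE 0.12) did not pass (limma adjusted p = 0.0876).

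**Figure D3:**
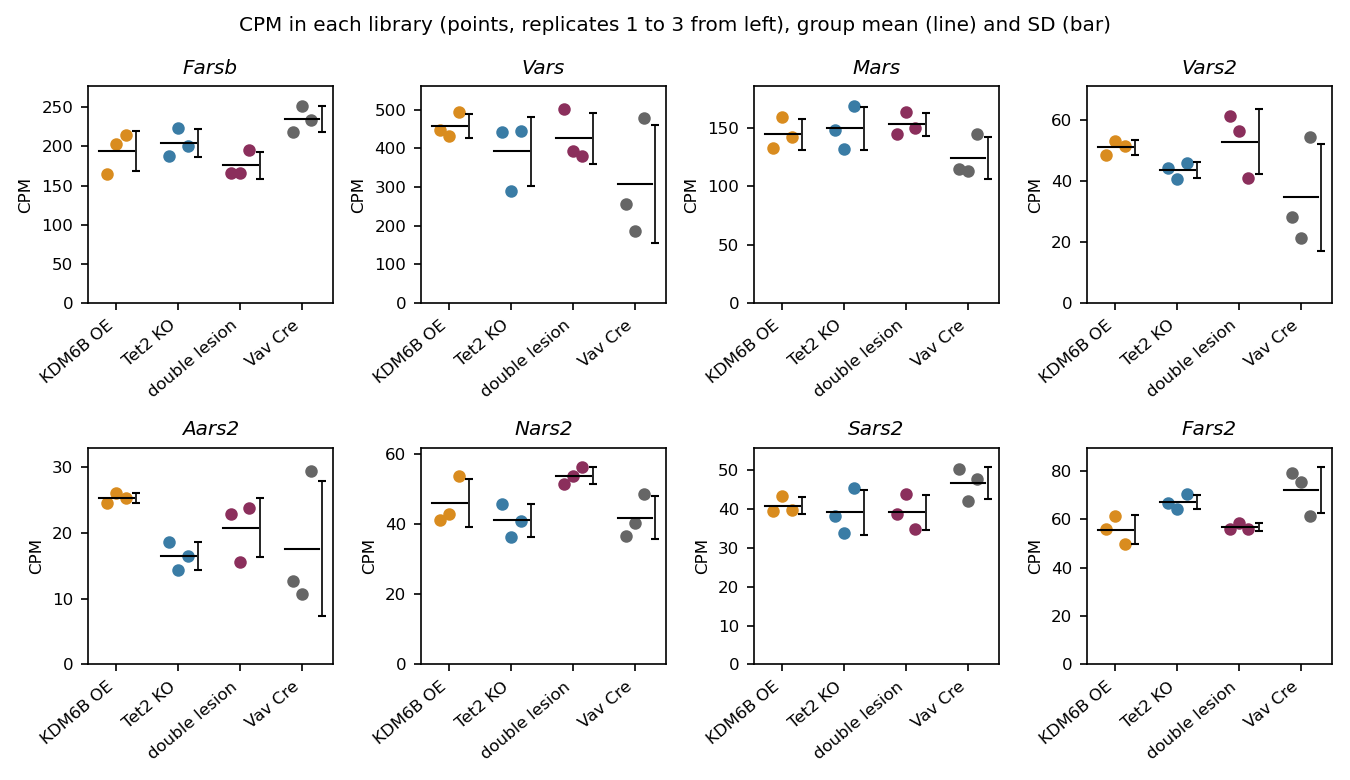
CPM of 8 synthetase genes in each library (points), with the group mean (line) and SD (bar), on axes that start at 0. For Farsb the double lesion libraries at 166, 166 and 196 CPM lie under the Vav Cre libraries at 219, 252 and 234 CPM, while for Vars, Vars2 and Aars2 the spread of the 3 Vav Cre points exceeds that of the other groups.

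The valyl enzymes had the largest positive differences of their compartments in the double lesion. Vars (chromosome 17, 35000987 to 35016322, plus strand), the cytosolic enzyme, was at 447, 432 and 493 CPM in KDM6B OE, 442, 290 and 444 CPM in Tet2 KO, 502, 394 and 380 CPM in double lesion libraries, and 256, 187 and 478 CPM in Vav Cre. Vars2 (chromosome 17, 35655634 to 35667592, minus strand), the mitochondrial enzyme, was at 48.4, 53.3 and 51.5 CPM in KDM6B OE, 44.4, 40.8 and 46.0 CPM in Tet2 KO, 61.4, 56.4 and 40.9 CPM in double lesion libraries, and 28.2, 21.3 and 54.3 CPM in Vav Cre. In both genes Vav Cre 1 and 2 lay below all 9 libraries with a lesion, and Vav Cre 3 lay among them.

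In none of the 3 comparisons with Vav Cre did a valyl gene pass the test over all libraries. The log2 differences of Vars were 0.68 for KDM6B OE (adjusted p = 0.166), 0.44 for Tet2 KO (adjusted p = 0.482) and 0.57 for the double lesion (adjusted p = 0.152), each with an SE of 0.26. Those of Vars2 were 0.66 (adjusted p = 0.169), 0.44 (adjusted p = 0.469) and 0.69 (adjusted p = 0.0820) in the same order, with an SE of 0.26 each (limma throughout). Without Vav Cre 3, Vars was called in all 3, with differences of 1.06, 0.81 and 0.95 (adjusted p = 0.00590, 0.0466 and 0.00394), and so was Vars2, with 1.03, 0.81 and 1.06 (adjusted p = 0.00495, 0.0398 and 0.00185). Their transcripts are rich in G and C (60.9% in Vars, 58.6% in Vars2), and the median difference of the 3034 tested genes above 55% was 0.18, 0.07 and 0.22 in the same 3 comparisons. With the length and GC trend removed, the double lesion differences came to 0.07 for Vars (limma adjusted p = 0.760) and 0.23 for Vars2 (limma adjusted p = 0.402).

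For Aars2, the mitochondrial alanyl enzyme, Vav Cre 3 also stood above the other controls. Aars2 was at 24.5, 26.0 and 25.2 CPM in KDM6B OE, 18.6, 14.3 and 16.4 CPM in Tet2 KO, 22.8, 15.6 and 23.8 CPM in double lesion libraries, and 12.7, 10.7 and 29.4 CPM in Vav Cre. By limma its difference was 0.63 in KDM6B OE (SE 0.29, adjusted p = 0.230), with 0.03 for Tet2 KO (adjusted p = 0.972) and 0.34 for the double lesion (adjusted p = 0.456). Without Vav Cre 3 the first became 1.05 (adjusted p = 0.00847) and the last 0.76 (adjusted p = 0.0166). The Aars2 transcript is also rich in G and C, and with the length and GC trend removed the differences were 0.28 in KDM6B OE (limma adjusted p = 0.521) and -0.08 in the double lesion (limma adjusted p = 0.845).

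The methionyl enzyme Mars, a member of the multisynthetase complex, was at 148, 132 and 169 CPM in Tet2 KO libraries and at 145, 164 and 150 CPM in double lesion libraries, against 115, 113 and 145 CPM in Vav Cre. The difference was 0.27 in Tet2 KO (limma adjusted p = 0.377) and 0.30 in the double lesion (SE 0.13, limma adjusted p = 0.113). Nars2, the mitochondrial asparaginyl enzyme, was at 51.4, 53.6 and 56.2 CPM in the double lesion, above the 36.5, 40.3 and 48.5 CPM of Vav Cre and the 45.8, 36.4 and 41.0 CPM of Tet2 KO. Its difference was 0.36 against Vav Cre (SE 0.15, limma adjusted p = 0.107) and 0.39 against Tet2 KO (limma adjusted p = 0.412). Sars2, the mitochondrial seryl enzyme, was at 38.2, 33.9 and 45.4 CPM in Tet2 KO libraries and at 38.8, 43.9 and 34.9 CPM in double lesion libraries, against 50.3, 42.1 and 47.7 CPM in Vav Cre, and the groups overlapped. Its differences were -0.25 in both (limma adjusted p = 0.451 in Tet2 KO and 0.248 in the double lesion). With the length and GC trend removed, the double lesion differences were 0.09 for Mars (limma adjusted p = 0.580) and 0.28 for Nars2 (limma adjusted p = 0.212). Without Vav Cre 3, Mars and Nars2 were called in the double lesion (limma adjusted p = 0.0210 and 0.0315), and the whole comparison called 7 members higher (Aars2, Farsa, Iars, Mars, Nars2, Vars and Vars2) and 3 lower (Eprs, Fars2 and Farsb), against 27.5% of all genes.

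KDM6B OE against Vav Cre called 0 of 36 synthetases, against 0.598% of all genes tested (0.521% higher and 0.0767% lower). The log2 difference was below 0 for 19 members, against 45.0% of all genes. By the unadjusted p under 0.05, 7 members were counted, against 21.6% of all genes. edgeR called 0 members, against 0.567% of all genes, and DESeq2 called 1, Fars2, against 6.26% of the genes it gave an adjusted p. The median difference was -0.05 in the cytosolic and 0.05 in the mitochondrial genes, against 0.04 over all genes. Libraries did not overlap for 2 higher members (Tarsl2 and Tars2; all genes, 11.6%) and 4 lower members (Farsb among them; all genes, 10.9%). Without Vav Cre 3 the comparison called 5 members higher (Aars2, Farsa, Iars, Vars and Vars2) and 1 lower (Fars2), against 14.8% of all genes.

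Tet2 KO against Vav Cre also called 0 of 36, against 0.0307% of all genes (0.0230% higher and 0.00767% lower). The log2 difference was below 0 for 21 members, against 45.8% of all genes. Here 0 members stood at an unadjusted p under 0.05, against 13.5% of all genes. edgeR and DESeq2 each called 0 members, against 0.0307% and 1.23% of all genes. The medians were -0.08 and -0.02 in cytosolic and mitochondrial genes, against 0.03 over all genes. Libraries did not overlap for 1 higher member (Hars2; all genes, 6.87%) and 1 lower member (Cars2; all genes, 5.70%). For 32 of 36 members the 95% interval lay within 1.5-fold either way, as it did for 44.2% of all genes. In KDM6B OE this held for 31 members (all genes, 38.8%), and in the double lesion for 26 (all genes, 32.8%). In Tet2 KO the 4 members whose interval reached past 1.5-fold were Vars, Vars2, Aars2 and Wars2. Without Vav Cre 3 Tet2 KO called Vars and Vars2, against 2.35% of all genes.

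The double lesion was also set against each single lesion. Against KDM6B OE 0 members were called, as were 0% of all genes, with 0 members and 5.91% of all genes at an unadjusted p under 0.05. The difference was below 0 for 26 members (all genes, 52.2%), with a median of -0.09 in either compartment and of -0.01 over all genes. Libraries did not overlap for 7 lower members (Gars, Hars, Aars2, Cars2, Mars2, Rars2 and Tars2; all genes, 9.72%) and 0 higher ones (all genes, 8.98%), and for 32 members the interval lay within 1.5-fold (all genes, 52.0%). Against Tet2 KO 0 members were called, against 0.215% of all genes (0.192% higher and 0.0230% lower), with 1 member, Nars2, and 10.6% of all genes at an unadjusted p under 0.05. The difference was below 0 for 25 members (all genes, 50.6%), and for 30 the interval lay within 1.5-fold (all genes, 46.1%). Libraries did not overlap for 2 higher members (Farsa and Nars2; all genes, 10.8%) and 4 lower ones (Fars2 among them; all genes, 10.9%). The interaction, which asks whether the effect of the double lesion departs from the sum of the single effects, called 0 members and 0% of all genes, with 1 member, Wars, and 4.43% of all genes at an unadjusted p under 0.05. For 23 members the interval lay within 1.5-fold (all genes, 27.0%). Wars, the cytosolic tryptophanyl enzyme, was at 124, 147 and 148 CPM in KDM6B OE, 155, 127 and 140 CPM in Tet2 KO, 131, 120 and 113 CPM in double lesion libraries, and 131, 110 and 135 CPM in Vav Cre. Its interaction was -0.37 (SE 0.17, unadjusted p = 0.0459, limma adjusted p = 0.999). edgeR and DESeq2 called 0 members in each of these 3 comparisons. Against KDM6B OE, against Tet2 KO and in the interaction, edgeR called 0%, 0.153% and 0% of all genes. DESeq2 called 0.153%, 1.16% and 0.0383% of the genes it gave an adjusted p, in the same order. A double lesion effect on a synthetase that differs from that of a single lesion was thus not shown.

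Taken by complex and by ATF4 target, the groups of cytosolic enzymes had medians close to each other in the double lesion. The 8 enzymes of the multisynthetase complex had a median difference of -0.14, with 6 below 0 and 0 called. Of the 13 other cytosolic enzymes 10 were below 0 and 1 was called, with a median of -0.15. The 13 cytosolic genes known as ATF4 targets had a median of -0.15, with 10 below 0 and 0 called, and the 8 other cytosolic genes a median of -0.14, with 6 below 0 and 1 called. The 5 genes whose printed windows hold the ATF4 element differed by -0.24 (Tars), 0.19 (Iars), -0.15 (Gars), -0.08 (Yars) and -0.11 (Aars), and none was called. The catalytic classes were taken over cytosolic and mitochondrial genes together. The 17 genes of class I had a median of -0.08 and 0 called. The 18 genes of class II, to which FARSB belongs, had a median of -0.15 and 1 called. The median over all genes in this comparison was 0.05, with 45.6% below 0, 7.58% called lower and 7.34% called higher.

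**Figure D4:**
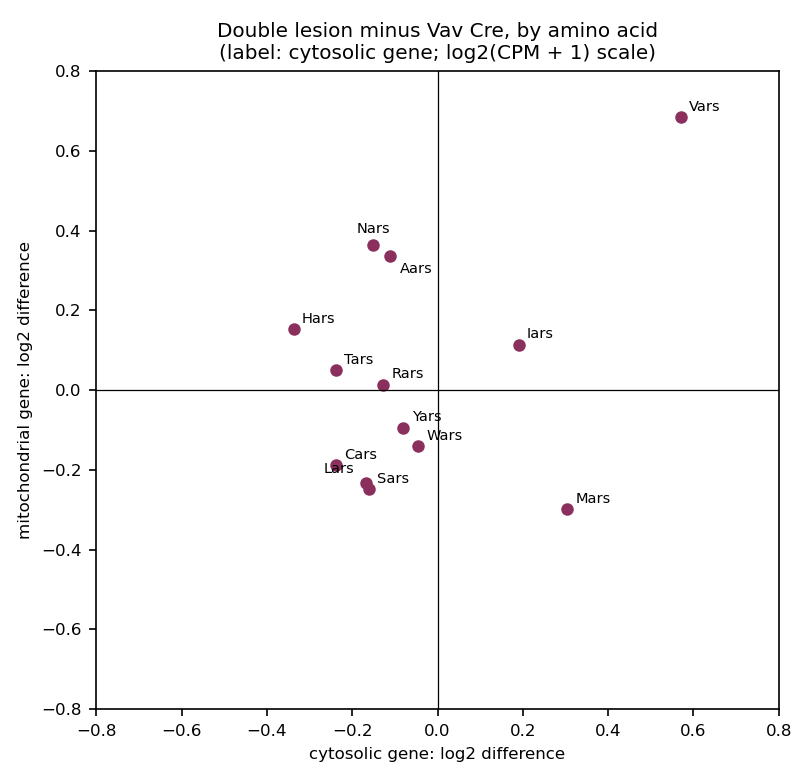
Each point is an amino acid (1 is not drawn), with the log2 difference between the double lesion and Vav Cre of its cytosolic gene on the horizontal axis and of its mitochondrial gene on the vertical axis. Valine (Vars) lies alone at the upper right, at 0.57 and 0.69, and methionine (Mars) at the lower right, at 0.30 and -0.30.

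The cytosolic and the mitochondrial gene of an amino acid had the same sign for 8 of 14 amino acids in the double lesion. In KDM6B OE this number was 8, and in Tet2 KO it was 10, and the 3 comparisons share the Vav Cre libraries. The clearest opposite pairs in the double lesion were methionine, with 0.30 in Mars and -0.30 in Mars2, asparagine, with -0.15 in Nars and 0.36 in Nars2, and histidine, with -0.34 in Hars and 0.15 in Hars2. None of these 6 genes passed the test. Hars and Hars2 lie on opposite strands of chromosome 18 and share 195 exon bases, so part of their reads cannot be assigned to one of them.

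Summed over the 21 genes, cytosolic synthetase transcripts came to 3350 to 3767 CPM in KDM6B OE, 3510 to 3781 CPM in Tet2 KO, 3379 to 3441 CPM in the double lesion and 3300 to 3926 CPM in Vav Cre. The range of each lesion group lay within or overlapped that of Vav Cre, and all double lesion libraries lay below all Tet2 KO libraries. Without Lars2 the mitochondrial sum was 845 to 889 CPM in KDM6B OE, 848 to 849 CPM in Tet2 KO, 814 to 851 CPM in the double lesion and 823 to 868 CPM in Vav Cre. Lars2 itself was at 1200, 1510 and 1370 CPM in the double lesion, against 1390, 2010 and 1440 CPM in Vav Cre. By contrast, cytosolic ribosomal protein genes summed to 28300 to 32410 CPM in the double lesion, against 41760 to 59620 CPM in Vav Cre. Of the 81 tested, 73 were called lower in the double lesion, against 7.58% of all genes. In KDM6B OE the sum was 33920 to 37510 CPM, also below every Vav Cre library. In Tet2 KO it was 33780 to 44170 CPM, which overlapped Vav Cre. Both single lesions called 0 of the 81, against 0.598% of all genes in KDM6B OE and 0.0307% in Tet2 KO. Genes of proliferation summed to 1798 to 2239 CPM in the double lesion, against 2980 to 3560 CPM in Vav Cre. Their sums in KDM6B OE (2407 to 2798 CPM) and Tet2 KO (2357 to 2949 CPM) also lay below every Vav Cre library. The part of cell composition or cycling in the synthetase values was not tested.

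Partner genes of tRNA charging included 2 called genes. Of 15 such genes these 2 were called lower and 0 higher in the double lesion, against 7.58% of all genes called lower and 7.34% higher. The log2 difference was below 0 for 13 of them, against 45.6% of all genes, with a median of -0.16. The first was Aarsd1 (chromosome 11, 101406839 to 101417615, minus strand), whose protein removes serine wrongly attached to the tRNA of alanine. Aarsd1 was at 68.1, 77.2 and 71.5 CPM in the double lesion, against 112, 141 and 119 CPM in Vav Cre, and fell by 0.77 (SE 0.13, limma adjusted p = 0.00561). It shares 41.0% of its exon bases with Gm27029 on the same strand, so its counts are uncertain. The second was Aimp1 (chromosome 3, 132660499 to 132684370, minus strand), a scaffold of the multisynthetase complex. Aimp1 was at 39.7, 43.0 and 41.1 CPM in the double lesion, against 66.2, 81.4 and 53.2 CPM in Vav Cre, and fell by 0.66 (SE 0.14, limma adjusted p = 0.0135). Neither gene's double lesion libraries overlapped those of Vav Cre.

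The other scaffold genes did not pass. Eef1e1 differed by -0.47 in the double lesion (limma adjusted p = 0.136), with no overlap between the groups, and Aimp2 by -0.32 (limma adjusted p = 0.199), with overlap. For Aimp1 the difference was -0.39 in KDM6B OE (limma adjusted p = 0.157) and -0.26 in Tet2 KO (limma adjusted p = 0.450), and without Vav Cre 3 the first was called (-0.54, limma adjusted p = 0.0187). In both single lesions limma called 0 of the 15 partners and 0 of the 24 ATF4 response genes. Over all genes the share called was 0.598% in KDM6B OE and 0.0307% in Tet2 KO. The call of Aimp1 was lost without double lesion 1 (limma adjusted p = 0.0670) and with only the compared libraries (0.0675).

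**Figure D5:**
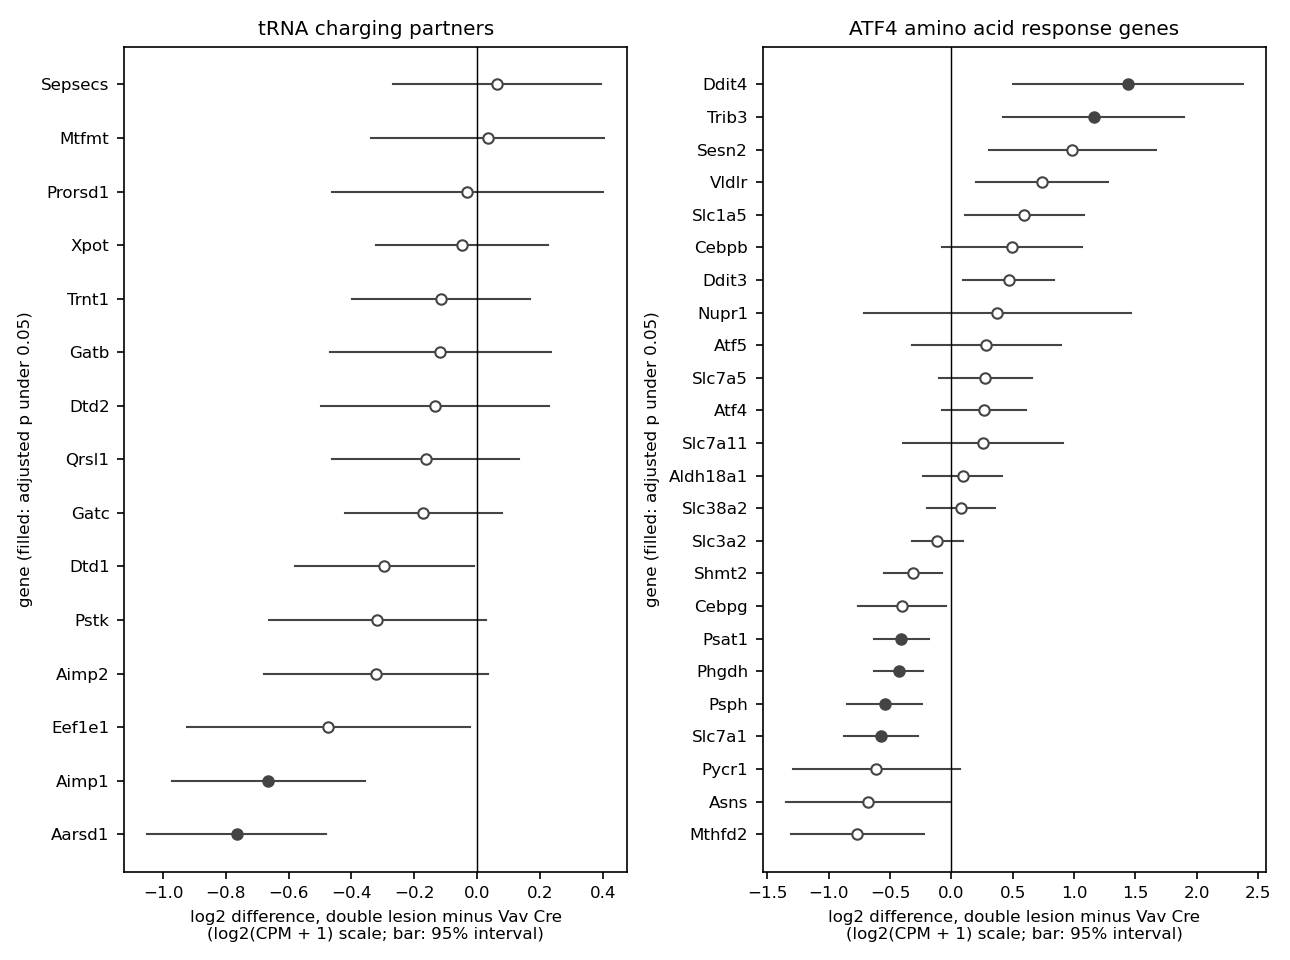
Log2 differences between the double lesion and Vav Cre with unadjusted 95% intervals, for 15 partner genes of tRNA charging (left) and 24 genes of the ATF4 amino acid response (right), on axes of different length. Filled points passed the test, among them Aarsd1 at -0.77 and Aimp1 at -0.66 on the left, and Ddit4 at 1.44 and Slc7a1 at -0.58 on the right.

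Of 24 genes of the ATF4 response that were tested, 2 were called higher and 4 lower in the double lesion, against 7.34% of all genes called higher and 7.58% lower. Their median was 0.17, against 0.05 over all genes, and the count of higher genes is near the share over all genes. Ddit4, which restrains mTORC1, was at 7.31, 13.7 and 7.63 CPM in the double lesion, against 1.10, 2.79 and 5.62 CPM in Vav Cre, and rose by 1.44 (SE 0.44, limma adjusted p = 0.0424). Trib3, a pseudokinase that limits ATF4, was at 13.1, 8.49 and 6.89 CPM in the double lesion, against 4.63, 1.46 and 5.80 CPM in Vav Cre, and rose by 1.16 (SE 0.34, limma adjusted p = 0.0391). In both genes every double lesion library lay above every Vav Cre library, and Vav Cre 3 was the highest control. Both calls were lost in edgeR (adjusted p = 0.0723 for Ddit4 and 0.0660 for Trib3). By limma both were also lost without Vav Cre 2, any double lesion library, any KDM6B OE library or Tet2 KO 3. The call of Ddit4 was lost as well without Vav Cre 1 (limma adjusted p = 0.126) and with no filter on low values (0.0514). That of Trib3 was lost with a term for sex (limma adjusted p = 0.0681). Atf4 itself was at 222, 220 and 218 CPM in the double lesion, against 160, 215 and 178 CPM in Vav Cre, a difference of 0.26 (limma adjusted p = 0.269). Most immediate early genes rose in the double lesion as well (13 of 15 called, against 7.34% of all genes), and their part in these values was not tested.

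Among the 4 lower genes of this list were 3 of serine synthesis. Phgdh, Psat1 and Psph encode its successive enzymes. Phgdh was at 523, 544 and 525 CPM in the double lesion, against 710, 736 and 699 CPM in Vav Cre, and fell by 0.43 (SE 0.09, limma adjusted p = 0.0145). Psat1 was at 108, 114 and 114 CPM in the double lesion, against 149, 161 and 137 CPM in Vav Cre, and fell by 0.41 (SE 0.10, limma adjusted p = 0.0232). Psph was at 51.1, 57.0 and 57.7 CPM in the double lesion, against 80.6, 97.9 and 67.3 CPM in Vav Cre, and fell by 0.55 (SE 0.14, limma adjusted p = 0.0265). In all 3 genes the double lesion libraries lay below every Vav Cre library. Of the mouse synthetases that use their product, Sars differed by -0.16 and Sars2 by -0.25, and neither passed. With the length and GC trend removed both were called lower, against 14.5% of all genes called.

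Slc7a1, a transporter of arginine and lysine, was the fourth. Slc7a1 was at 23.3, 22.7 and 24.1 CPM in KDM6B OE, 18.8, 15.9 and 19.2 CPM in Tet2 KO libraries and at 21.7, 22.2 and 19.8 CPM in double lesion libraries, against 31.0, 32.1 and 33.3 CPM in Vav Cre. All 9 libraries with a lesion lay below all 3 controls. Slc7a1 fell by 0.58 in the double lesion (SE 0.14, limma adjusted p = 0.0202). The difference in Tet2 KO was -0.81 (SE 0.14, limma adjusted p = 0.0597) and that in KDM6B OE -0.44 (SE 0.14, limma adjusted p = 0.127). Slc7a1 was called in Tet2 KO by DESeq2 (adjusted p = 6.12e-07), after removal of the length and GC trend (0.0246) and without Vav Cre 3 (0.0297), and in KDM6B OE by DESeq2 (adjusted p = 0.0123) and with that trend removed (0.0384). In the double lesion the calls of Slc7a1, Phgdh, Psat1 and Psph were lost with only the compared libraries (adjusted p = 0.0760, 0.0571, 0.0778 and 0.0823 by limma), as were those of Ddit4 and Trib3. In that setting 2.22% of all genes were called, against 14.9% in the main fit. Without double lesion 1 the list called 0 genes, against 2.33% of all genes. Leaving out Vav Cre 2, double lesion 2 or double lesion 3 each left 0 higher and 1 lower. The share of all genes called was then 4.68%, 5.7% and 6.37%, so calls fell over all genes as well.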

How the data were processed

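RNA of LSK cells from 4 groups of 3 libraries was prepared from 10 to 20 ng with a SMARTer kit and Nextera, per the labels' protocols. Reads were aligned to mm10 with TopHat2 2.0.10, counted with HTSeq 0.6.0 and scaled with edgeR 3.8.6, per the submitters' processing notes. For annotation and strand setting, the sources used here give nothing. The deposited values are a signal, gene counts divided by the authors' effective library sizes (CPM). Plain CPM had been foreseen. All values came out as whole reads within 1e-06.

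Genes above 1 CPM in 3 or more libraries were tested (13046 kept, 2320 set aside) on log2(CPM + 1), which understates changes of low genes, with limma 3.58.1 in R 4.3.3. A single fit held all 12 libraries (8 residual degrees of freedom) and gave 6 comparisons, with Benjamini-Hochberg adjustment over all genes. edgeR 4.0.16 and DESeq2 1.42.0 were run on the recovered reads as alternatives. The scripts were tested on simulated data. Lengths, GC content and coordinates came from GENCODE M21 (GRCm38), which matched 14742 genes (95.9%).

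Values per library were given for synthetases past the threshold and, in each comparison with Vav Cre, for the 2 cytosolic and 2 mitochondrial genes with the largest absolute log2 difference. Pathway genes were named where past the threshold. Other genes were named after their values were seen. Values of 1 member, and 1 sequence window, are not reported here. The members and lists were chosen with earlier results of these data known. Other alternatives were the pseudocount, the filter, rescaled totals, only the compared groups, a replicate block and leaving out each library, and, added after seeing the data, a length and GC trend and a term for sex.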

Additional observations from a re-analysis of the deposited data

How the results depend on the processing

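With 3 libraries a group and controls that spread widely, synthetase calls depended on the libraries used. Leaving out 1 library at a time, called synthetases ranged over 0 to 6 for KDM6B OE, 0 to 2 for Tet2 KO and 0 to 10 for the double lesion, each highest without Vav Cre 3. Called genes in all ranged over 22 to 1934, 1 to 307 and 304 to 3585 in the same order, lowest in KDM6B OE without KDM6B OE 1, in Tet2 KO without double lesion 1, double lesion 2, double lesion 3 or KDM6B OE 2 (each gave 1), and in the double lesion without double lesion 1. They ranged over 0 to 5 in the double lesion against KDM6B OE (5 without KDM6B OE 1) and 9 to 55 against Tet2 KO (9 without double lesion 2, 55 without Vav Cre 3). Cytosolic medians ranged over -0.19 to -0.11 in the double lesion and -0.10 to 0.062 in the interaction, and mitochondrial medians over -0.11 to 0.085 for Tet2 KO, -0.15 to -0.0051 for the double lesion and -0.17 to -0.02 in the interaction.

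With only the compared groups, 22 genes were called in KDM6B OE (78 otherwise), 0 in Tet2 KO (4), 289 in the double lesion (1947, with 0 synthetases), 61 against KDM6B OE (0) and 53 against Tet2 KO (28). The interaction was not run this way, since it uses all 4 groups. DESeq2 called 737, 160, 20, 143 and 5 genes in KDM6B OE, Tet2 KO, the double lesion against KDM6B OE, against Tet2 KO and the interaction. It called 1 synthetase in KDM6B OE and 3 in the double lesion, where 2676 genes were called in all. Rescaled totals left 0 synthetases in the double lesion, with medians of -0.06 (cytosolic) and -0.011 (mitochondrial). With the length and GC trend removed, 10 genes were called in Tet2 KO (mitochondrial median -0.10), 61 in the double lesion against Tet2 KO, and 7 synthetases in the double lesion. With the sex term, 162 genes were called in KDM6B OE, 18 in the double lesion against Tet2 KO, and 0 synthetases in the double lesion. Mitochondrial medians were then 0.016 in the double lesion and -0.016 against KDM6B OE, and the cytosolic median of the interaction was 0.070. The causes were not tested.

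The main fit did not pair libraries by replicate number, and the labels give no batch. Of 18 same-numbered pairs 10 had a correlation above 0.1 (-0.15 to 0.39), and 8 of 12 libraries correlated best with their own number, a hint from the data and not the design. A replicate block gave 284 genes in KDM6B OE, 1 in Tet2 KO and 3 in the double lesion against KDM6B OE. In the double lesion against Vav Cre it gave 2699 genes (20.7% of all genes) and 2 synthetases (Farsb and Hars).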
